A study of Mus musculus with 4 samples.

Results

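At the start or the 3′ end of a protein-coding gene, 6063 genomic regions bound by the transcription factor Tfcp2l1 were found in both repeats of a chromatin immunoprecipitation and sequencing (ChIP-seq) experiment on mouse embryonic stem cells. A region was taken when its peak in repeat 1 overlapped a peak of repeat 2 by at least 1 bp, lay on 1 of the 19 autosomes and had its summit (the position of highest tag density) within 1000 bp of either end of a protein-coding RefSeq gene. These gene-end peaks were 14.0% (exact 95% interval 13.7 to 14.3%) of the 43258 autosomal peaks found in both repeats. Each repeat had been called by the authors on its own, giving 57614 peaks in repeat 1 and 51610 in repeat 2, and 43851 peaks of repeat 1 were shared. The positions are those of mouse build GRCm38.

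All cells were wild type, untreated and kept in serum-free medium that held LIF at 1000 units/mL, the GSK3 inhibitor CHIR99021 at 3 µM and the MEK inhibitor PD0325901 at 1 µM, the mixture known as 2i with LIF. Each of the 2 repeats had 1 ChIP library, made with 10 µg of a custom antibody to mouse Tfcp2l1, and 1 input library of sheared chromatin with no antibody. The labels name neither the cell line nor its strain, and do not say that the repeats were separate cultures, so differences between them may be technical. After duplicate filtering the ChIP libraries held 19353473 and 22555373 tags, and the highest false discovery rate of any listed peak was 0.12%. Where 2 values stand side by side, the first belongs to repeat 1 and the second to repeat 2. Fold enrichment is the authors' value for a peak, a ratio of ChIP to the background estimated around it, and intervals of percentages cover counting error only.

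Tfcp2l1 belongs to the CP2 and Grainyhead superfamily of DNA-binding proteins. LIF induces its gene through Stat3, and forced expression of Tfcp2l1 helps mouse embryonic stem cells to stay in the naive state without LIF. Proteins of the CP2 branch bind as dimers or larger assemblies to a pair of short half-sites that point the same way and sit about a helical turn apart. In the adult, Tfcp2l1 is known for its part in the kidney collecting duct and in the ducts of glands.

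Promoter sequences of 6 strong gene-end peaks show the paired half-sites, and they were picked because they hold a match. Promoter windows came from RefSeq (GRCm38.p6) and run from 250 bases before to 50 bases after a listed transcription start, on the strand of the gene. The pair searched for was CCNGNNNNNNCCNG, 2 half-sites with a spacer of 6 bases, on both strands with overlapping matches allowed. It stood in 34.9% of all 20085 windows, and capitals mark every match. The 6 windows with a match are those of the strongest gene-end peaks whose summits in both repeats fell inside the window, in order of mean rank by fold enrichment. Ubl5, at the end, is the strongest such peak without a match and is shown for contrast. The window of Naa50 (124.64-fold and 94.18-fold), ranked between Capn1 and Slc16a9, also held no match and is not printed. Tbrg1 encodes a growth inhibitor, Slc27a1 a fatty acid transporter, Capn1 a calcium-dependent protease, Slc16a9 a monocarboxylate transporter, Ckmt1 a mitochondrial creatine kinase, Triml2 a tripartite motif protein and Ubl5 a ubiquitin-like protein of the spliceosome.
Tbrg1, chr9:37657263-37657562, minus strand: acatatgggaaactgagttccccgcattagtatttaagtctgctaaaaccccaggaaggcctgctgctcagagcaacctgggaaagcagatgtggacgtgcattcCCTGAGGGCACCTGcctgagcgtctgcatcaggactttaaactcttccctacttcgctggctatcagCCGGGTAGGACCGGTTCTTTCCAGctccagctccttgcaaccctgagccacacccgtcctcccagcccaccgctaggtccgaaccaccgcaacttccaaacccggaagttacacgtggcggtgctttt
Slc27a1, chr8:71569347-71569646, plus strand: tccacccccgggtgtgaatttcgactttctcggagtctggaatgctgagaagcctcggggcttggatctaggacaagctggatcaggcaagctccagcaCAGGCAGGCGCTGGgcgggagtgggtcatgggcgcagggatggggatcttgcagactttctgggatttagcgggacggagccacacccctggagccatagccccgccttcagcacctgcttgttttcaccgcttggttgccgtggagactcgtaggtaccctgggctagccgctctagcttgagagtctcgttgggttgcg
Capn1, chr19:6015776-6016075, minus strand: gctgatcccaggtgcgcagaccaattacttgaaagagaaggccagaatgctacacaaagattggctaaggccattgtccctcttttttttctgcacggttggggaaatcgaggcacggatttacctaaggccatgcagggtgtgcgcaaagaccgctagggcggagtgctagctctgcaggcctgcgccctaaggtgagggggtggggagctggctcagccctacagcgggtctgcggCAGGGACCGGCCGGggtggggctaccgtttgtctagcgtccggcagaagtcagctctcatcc
Slc16a9, chr10:70245026-70245325, plus strand: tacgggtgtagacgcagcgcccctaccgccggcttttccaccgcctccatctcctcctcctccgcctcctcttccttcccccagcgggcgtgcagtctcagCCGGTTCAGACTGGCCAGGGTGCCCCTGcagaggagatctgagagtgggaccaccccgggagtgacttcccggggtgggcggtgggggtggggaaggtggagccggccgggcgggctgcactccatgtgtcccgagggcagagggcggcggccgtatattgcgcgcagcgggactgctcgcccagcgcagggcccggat
Ckmt1, chr2:121357526-121357825, plus strand: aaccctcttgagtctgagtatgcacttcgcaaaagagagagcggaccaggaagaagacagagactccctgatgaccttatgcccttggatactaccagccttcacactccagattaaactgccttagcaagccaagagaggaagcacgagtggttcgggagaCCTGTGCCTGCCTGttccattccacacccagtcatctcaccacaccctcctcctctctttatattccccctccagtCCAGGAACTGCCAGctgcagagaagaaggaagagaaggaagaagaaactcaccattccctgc
Triml2, chr8:43180286-43180585, plus strand: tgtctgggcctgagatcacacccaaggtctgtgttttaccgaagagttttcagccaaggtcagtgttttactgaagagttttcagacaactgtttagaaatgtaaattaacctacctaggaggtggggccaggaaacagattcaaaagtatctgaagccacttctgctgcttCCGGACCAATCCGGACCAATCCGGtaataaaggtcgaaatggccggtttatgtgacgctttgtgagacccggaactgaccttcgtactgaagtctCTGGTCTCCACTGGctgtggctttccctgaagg
Ubl5, chr9:20642467-20642766, plus strand: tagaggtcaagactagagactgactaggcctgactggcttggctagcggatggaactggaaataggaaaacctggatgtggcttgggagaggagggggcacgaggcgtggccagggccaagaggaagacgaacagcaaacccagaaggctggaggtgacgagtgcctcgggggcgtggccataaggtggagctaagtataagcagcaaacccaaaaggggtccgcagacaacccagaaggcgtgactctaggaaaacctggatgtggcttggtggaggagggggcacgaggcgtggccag

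The Tbrg1 window held 4 matches, of which 3 had both half-sites in the stricter form CCAG or CCGG, and its peak had 152.67-fold and 103.6-fold enrichment. The Triml2 window held 5 matches of the stricter form, with 118.36-fold and 90.26-fold enrichment, although the gene end nearest to the summit was that of its neighbour Triml1. A pair of CCGG half-sites reads alike on both strands and counts as 2 matches, so the Tbrg1 and Triml2 windows held fewer sites than matches. The Slc16a9 and Ckmt1 windows held 1 match each of the stricter form, with 147.83-fold and 80.06-fold enrichment at Slc16a9 and 135.42-fold and 82.02-fold at Ckmt1. The matches at Slc27a1 (142.97-fold and 88.67-fold) and Capn1 (126.84-fold and 92.61-fold) were of the looser form alone. Ubl5, with no match in its window, reached 144.94-fold and 91.83-fold, so high enrichment also occurred without these letters in the window.

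Across the gene-end peaks, 3843 (63.4%) lay nearest a gene start, 980 (16.2%) nearest a 3′ end and 1240 (20.5%) at genes whose orientation was not given. Of the peaks with orientation, 79.7% were nearest a start. The peaks at starts crowded around the start itself. Their median distance was 243 bp, and 951 of them (24.7%, 23.4 to 26.1%) lay within 100 bp. The peaks at 3′ ends showed no such crowding. Their median distance was 514.5 bp, and 78 of them (7.96%, 6.34 to 9.83%) lay within 100 bp. A transcription start listed in the promoter table, of any gene, lay within 1000 bp of 69 of the 980 peaks at 3′ ends (7.04%, 5.52 to 8.83%). Among shared autosomal peaks away from gene ends the same share was 4.85% (4.63 to 5.08%). The peaks just inside and just outside the limit had similar values: 10 summits at 998 to 1000 bp had median folds of 11.9 and 9.81, and 10 at 1001 to 1002 bp had 14.4 and 13.1.

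**Figure D1:**
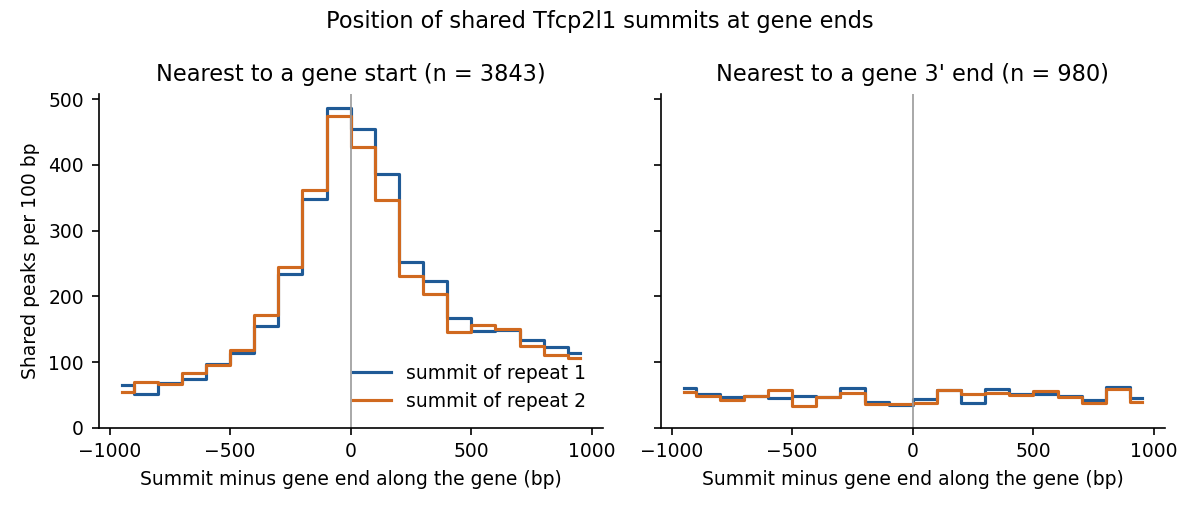
Number of shared gene-end peaks per 100 bp against the position of the summit relative to the nearest gene start (left) or 3′ end (right), in bp along the gene, with negative values upstream; lines show the summits of repeat 1 and repeat 2. The 3843 summits at starts pile up near 0, while the 980 at 3′ ends spread evenly over the window.

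The gene-end peaks of repeat 2 were mostly found again in repeat 1. Of the 6708 autosomal peaks of repeat 2 at a gene end, 90.9% (90.2 to 91.6%) were shared, against 83.9% (83.6 to 84.3%) of its peaks elsewhere. The share was 92.5% at starts and 85.9% at 3′ ends. Repeat 1 did not show this: 74.97% (74.0 to 75.9%) of its 8087 peaks at gene ends were shared, against 76.6% elsewhere. Peaks listed in 1 repeat alone were accordingly at gene ends in 15.1% of 13383 cases for repeat 1 and 7.90% of 7704 cases for repeat 2. Such gene-end peaks were weak in both repeats, with medians of 7.83-fold and 31 tags in repeat 1 and 6.28-fold and 27 tags in repeat 2. Unshared peaks elsewhere had medians of 7.73-fold and 28 tags in repeat 1 and 6.64-fold and 28 tags in repeat 2.

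The 20 strongest gene-end peaks, ranked over all shared autosomal peaks by fold enrichment in both repeats, reached between 122.08-fold and 186-fold in repeat 1, and in repeat 2 between 88.67-fold and 140.49-fold. Of these, 15 lay nearest a start, 3 nearest a 3′ end and 2 at genes without orientation, and all 20 had the higher fold in repeat 1. Their summits differed between the repeats by at most 58 bp. At the top stood Sema4b, a membrane semaphorin, and Rbpj, the DNA-binding partner of the Notch receptors. Mettl27, a methyltransferase-like gene, came next through a region 609 bp before its 3′ end (chromosome 5, 134940770 to 134942572, 156.66-fold and 116.55-fold). Tep1, a telomerase-associated protein, had a summit 19 bp from an end (chromosome 14, 50869858 to 50871173, 156.53-fold and 107.13-fold). Ppp1r14d, an inhibitor of protein phosphatase 1, had one 280 bp upstream of its start (chromosome 2, 119229556 to 119231138, 144.67-fold and 121.26-fold).

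The other genes of the 20 had varied roles. Ube2b, a ubiquitin-conjugating enzyme, had 162.99-fold and 96.93-fold enrichment 256 bp upstream of its start. Arhgap17, a GTPase-activating protein, had 178.75-fold and 92.5-fold enrichment 308 bp upstream. Chd9, a chromodomain helicase, had 131.41-fold and 98.08-fold enrichment 118 bp downstream of its start. A single peak lay between the starts of Atp6v1a, a subunit of the proton pump of acidic compartments, and Naa50, an N-terminal acetyltransferase, with 124.64-fold and 94.18-fold enrichment. Another lay within reach of both Lpar2, a lysophosphatidic acid receptor, and Gmip (122.08-fold and 103.99-fold). Mymx, the muscle fusion peptide myomixer, had a summit 87 bp from an end, with 123.54-fold and 100.31-fold. The remaining genes were Phyhd1, Nr2c2ap, Scgb3a1, Gm10130 and Trim34a, at 132.56-fold to 139.64-fold in repeat 1.

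The Tfcp2l1 gene itself had 1 gene-end peak, 910 bp downstream of its start (chromosome 1, 118627667 to 118629085). It held 109 and 76 tags, with 14.3-fold and 10.99-fold enrichment. Both folds were below the medians of all gene-end peaks, which were 17.2 and 11.8.

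Enrichment at gene ends depended on the repeat. In repeat 1 the gene-end peaks had a median of 17.2-fold (quartiles 10.8 and 31.4) against 15.0-fold at the other shared autosomal peaks. In repeat 2 both medians were 11.8-fold. Tag numbers gave the same picture, with medians of 72 and 58 tags at gene ends and 56 and 56 elsewhere. The tenth of all shared autosomal peaks with the highest fold took in 12.4% (11.6 to 13.2%) of the gene-end peaks by repeat 1 and 10.1% (9.31 to 10.8%) by repeat 2. A higher level at gene ends was thus seen in 1 of the 2 repeats. Peaks at starts and 3′ ends had medians of 17.9-fold and 15.9-fold in repeat 1 and of 11.8-fold and 11.4-fold in repeat 2. By repeat 1, the 10% of peaks with the highest fold took in 13.3% (12.3 to 14.5%) of the peaks at starts and 10.5% (8.66 to 12.6%) of those at 3′ ends.

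The ratio between the repeats fell with distance from a gene end. The median log2 ratio of fold in repeat 1 to repeat 2 was 0.53 at gene ends and 0.37 at the other shared autosomal peaks. It was 0.56 within 100 bp, 0.46 at 500 to 1000 bp, 0.41 at 1000 to 2000 bp and 0.34 beyond 50000 bp. The median ratio of tags scaled to library depth fell over the same bins from 1.47 to 1.11. At starts the log2 ratio was 0.55 and at 3′ ends 0.45. Repeat 1 had the higher fold at 83.1% of gene-end peaks and 76.5% of the others. Peaks kept their order between repeats about equally well in both classes, with a Spearman correlation of fold across peaks of 0.793 at gene ends and 0.802 elsewhere. Peaks of a pair of libraries are not independent samples, so these ratios describe the 2 repeats.

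**Figure D2:**
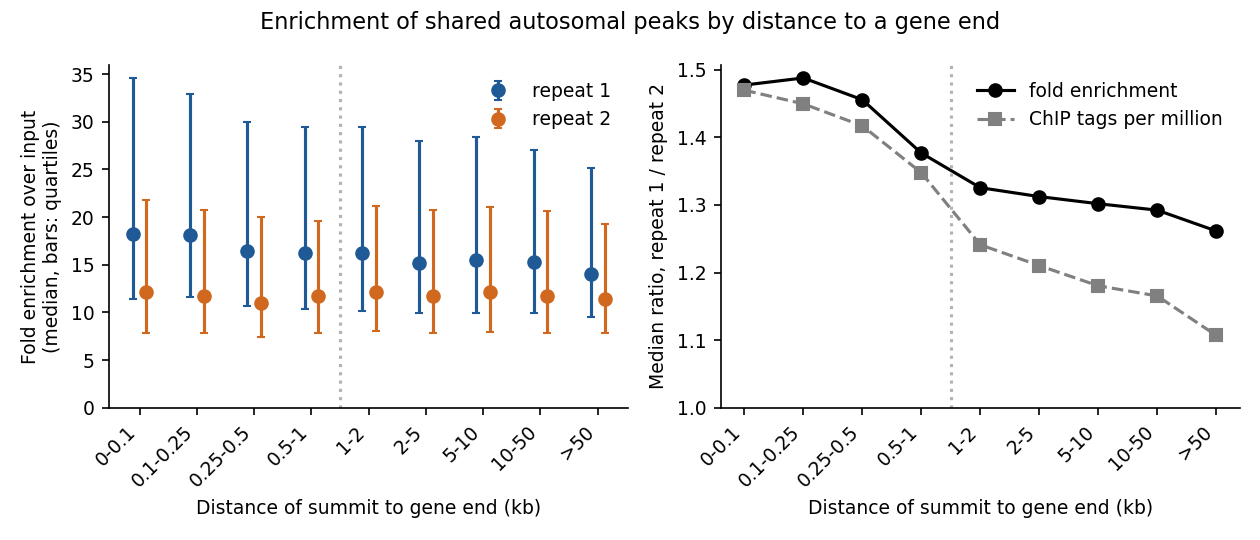
Left, authors' fold enrichment of shared autosomal peaks (points are medians, bars run between quartiles) against the distance of the summit to the nearest gene end in kb; right, the median ratio of repeat 1 to repeat 2 for fold and for ChIP tags scaled to library depth, on an axis that starts at 1. The dotted line marks the 1000 bp limit, and the fold ratio falls from a log2 value of 0.56 in the nearest bin to 0.34 in the farthest.

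The paired half-sites were most common with a spacer of 6 bases. In 1141 promoter windows a gene-end peak had both summits inside; these are called bound windows here. The pair CCNGNNNNNNCCNG stood in 56.6% (53.7 to 59.5%) of them, against 34.9% of all windows and 27.5% of the 13274 windows with no peak of either repeat. Bound windows also held more pairs at spacers of 5 and 7 bases (46.9% for each, against 34.6% and 34.7% of all windows). The sets of windows compared here were not matched for CpG content, and the shares within classes of CpG content are given below. The spacer of 6 bases stood apart more clearly with each half-site in the stricter form CCAG or CCGG. That pair stood in 285 bound windows (24.98%, 22.5 to 27.6%), in 9.86% of all windows and in 6.38% of windows with no peak. At every other spacer from 0 to 12 bases the stricter pair stood in 12.1 to 17.0% of bound windows.

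**Figure D3:**
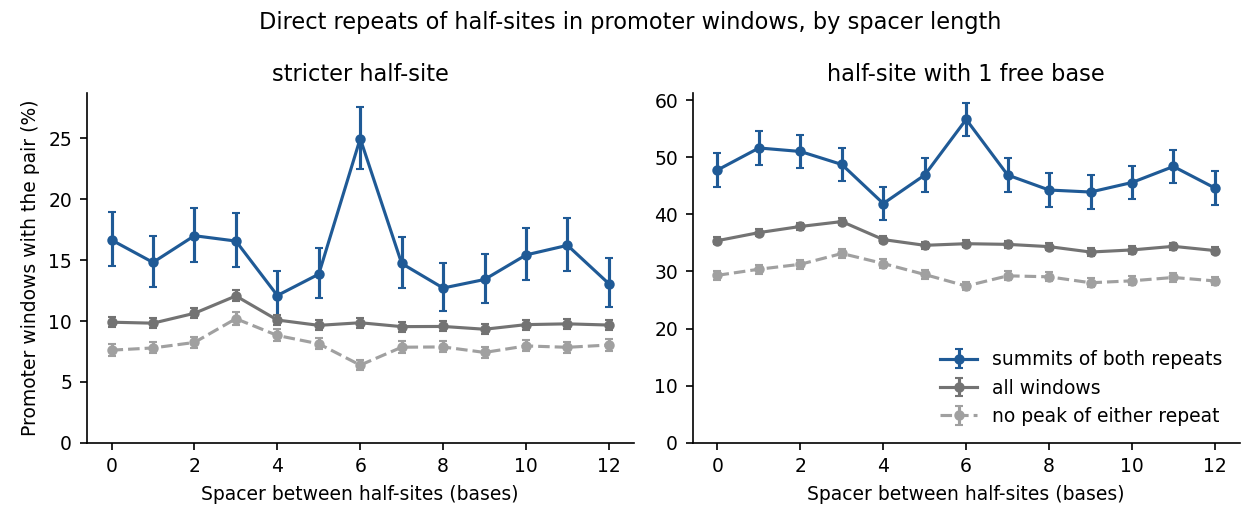
Percentage of promoter windows that hold 2 half-sites pointing the same way, against the number of bases between them, for the stricter half-sites (left) and for half-sites with 1 free base (right); bars are exact 95% intervals. At 6 bases the stricter pair stands in 24.98% of windows with summits of both repeats, 9.86% of all windows and 6.38% of windows with no peak.

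Stronger peaks held the stricter pair more often, in both repeats. When the bound windows were cut by fold into 4 groups of about equal size, from the lowest to the highest, the share with the pair was 19.5%, 19.9%, 25.2% and 35.4% in repeat 1. In repeat 2 it was 19.6%, 20.7%, 25.6% and 34.0%. The stricter form was chosen after seeing the data, and the pair of half-sites with 1 free base rose less. The share with that looser pair was 52.2%, 54.8%, 55.7% and 63.9% in repeat 1. In repeat 2 it was 54.4%, 52.7%, 57.5% and 61.8%, which was not a steady rise. The 285 peaks with the stricter pair had median folds of 25.7 and 17.3, and the 856 without it 18.9 and 12.6. In tags the medians were 99 and 79 with the pair and 78 and 61 without.

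Other short promoter words were also counted. These counts were not split by CpG or GC content, and median GC was 61.3% in bound windows and 57.0% in all windows. The GC box GGGCGG, a site of Sp factors, was in 69.2% of bound windows and 47.0% of all windows. The palindrome AACCGGTT, a site of Grainyhead-like factors, was rare, in 15 bound windows (1.31%, 0.738 to 2.16%) and 0.184% of all windows. The E-box CACGTG was in 10.4% and 7.89%, and CCAAT in 40.4% and 38.1%. The Stat word TTCNNNGAA was in 6.75% and 7.78%, with an interval of 5.36 to 8.36% in bound windows. The TATA word TATAAA was the less common in bound windows, at 6.31% against 12.7%.

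Summits did not lie on the stricter pair but to one side of it. For the 330 matches with a spacer of 6 bases in bound windows, the median of summit minus match centre was 72 bp in repeat 1 and 70.5 bp in repeat 2, counted towards higher chromosome positions. The side did not follow the gene: in repeat 1 the median was 65.5 bp at the 165 matches in genes of the plus strand and 74.5 bp at the 165 in genes of the minus strand. In repeat 1, 195 matches (59.1%) had the summit 40 to 120 bp to their right and 21 (6.36%) had it 40 to 120 bp to their left. The matches lay in 285 windows, and a pair that reads alike on both strands counts as 2 matches, so a summit can enter more than once. Other spacers showed the offset in part: the summit was to the right at 36.6% and to the left at 17.7% of matches with a spacer of 5 bases, and at 33.5% and 18.4% with 7 bases. With a spacer of 1 base these shares were 44.1% and 11.7%, with a median of 54 bp, and with spacers of 2 and 10 bases the medians were 59.5 and 57.5 bp.

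Single windows among those printed varied around this offset. At Slc27a1 the match lay 76.5 and 49.5 bp to the left of the summits of repeats 1 and 2. At Tbrg1 the matches lay 4.5 to 81.5 bp to the left of the summit in repeat 1. At Slc16a9 they lay 46.5 and 60.5 bp to its left, in both repeats. At Capn1 the summit lay on the match, with summit minus centre of -0.5 and 9.5 bp. Ckmt1 had 1 match 40.5 bp to the left of the summit and 1 match, the stricter one, 35.5 bp to its right.

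Seen from the summit, the 40 to 120 bp to its left held the stricter pair at 205 of 1142 peaks (17.95%) and the matching stretch to its right at 18 of 853 peaks (2.11%) in repeat 1. Repeat 2 gave 16.9% of 1120 and 2.45% of 856. These numbers differ because only peaks whose whole stretch lay inside a window were used. The offset also showed in the positions at gene starts. Summits lay a median of 102 and 91 bp downstream of starts on the plus strand and 18 and 34 bp upstream of starts on the minus strand. Per the file headers the authors' peak caller used a fragment length of 200 bp in both repeats, and the part of that setting in the offset was not tested. The median distance between a summit and a gene start thus differed with the strand of the gene in both repeats. Moving all summits 72 bp to the left changed the number of gene-end peaks from 6063 to 6053.

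**Figure D4:**
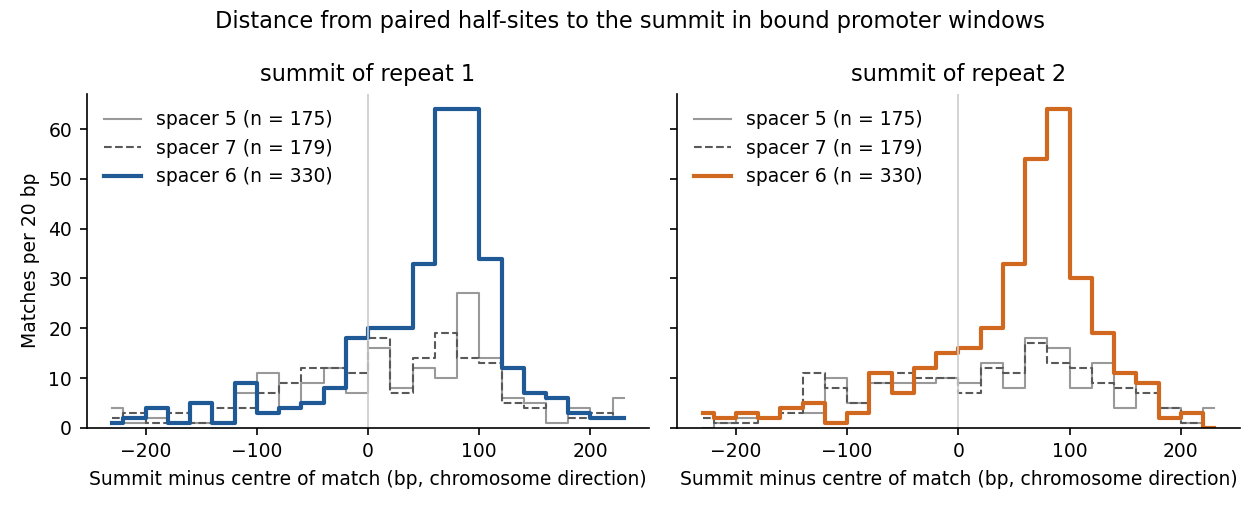
Number of matches of the stricter pair per 20 bp against the distance from the match centre to the summit, in bp towards higher chromosome positions, for spacers of 5, 6 and 7 bases in bound promoter windows of repeat 1 (left) and repeat 2 (right). With a spacer of 6 bases the 330 matches gather to the right of 0, with medians of 72 and 70.5 bp.

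Bound windows were rich in CpG. They held a median of 20 CpG, against 14 in all windows and 7 in windows with no peak, and their median GC content was 61.3%, 57.0% and 53.3% in the same order. A summit of both repeats fell in 1.25% of windows with 0 to 5 CpG, 4.56% with 6 to 10, 8.95% with 11 to 20, 9.60% with 21 to 30 and 6.01% with 31 or more. The stricter pair was more common in bound windows than in windows with no peak in each of the 5 classes, from 12.7% against 3.23% in the lowest to 39.2% against 13.9% in the highest. CpG content and the share with the pair rose together.

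The ratio between the repeats moved with CpG too. From the lowest to the highest class the median log2 ratio of repeat 1 to repeat 2 was 0.27, 0.44, 0.53, 0.66 and 0.76. The ratio of depth-scaled tags went from 1.19 to 1.79. In the same order the median fold was 15.8, 24.6, 21.2, 19.8 and 20.005 in repeat 1 and 13.5, 17.8, 15.2, 12.95 and 10.4 in repeat 2. CpG content moved in this way with the difference between repeats at gene starts, and its part in that difference was not tested.

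Most gene-end peaks were private to a gene. Of the 6063 peaks, 5244 lay within 1000 bp of an end of 1 gene, 801 of 2 genes and 18 of 3 or more. At 228 peaks (3.76%) the summit lay within reach of the starts of 2 genes facing away from each other, with median folds of 17.4 and 12.2. The most genes at 1 peak were 24, most of them protocadherin gamma genes, on chromosome 18 (37840076 to 37841711, 23.83-fold and 14.91-fold). Orientation was not given for genes of this chromosome. Protocadherins are cell-surface adhesion proteins. All genes at this peak count as 24 genes with a peak although the peak is 1.

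Of 20665 autosomal protein-coding genes, 6217 had a gene-end peak, which is 30.1%. Among the 16457 genes with orientation, 4198 (25.5%) had one at the start, 1228 (7.46%) at the 3′ end and 464 at both. Across autosomes the share of genes with a peak ran from 25.5% on chromosome 6 to 35.5% on chromosome 11. A single peak was found at 5548 of the 6217 genes, 2 peaks at 634 and 3 peaks at 35. Zswim3, a zinc finger SWIM-domain gene, had 3, with 59.91-fold and 63.18-fold enrichment 96 bp from its start and 38.65-fold and 36.54-fold and 22.4-fold and 10.6-fold at its 3′ end. Ncaph2, a condensin II subunit, had 2 near its start (81.49-fold and 62.4-fold, 23.83-fold and 7.46-fold) and 1 near its 3′ end (7.65-fold and 4.62-fold). Zfp335, a zinc finger transcription factor, had a peak of 97.7-fold and 80.84-fold at its 3′ end and 2 weaker ones at its start that met the same peak of repeat 2. The other genes named for their number of peaks were Mettl27, Trim12a, Slc39a4, Cuedc1, Gm52612, Flvcr2 and Il17rc. In some, as at Mettl27 and Flvcr2, 2 peaks of repeat 1 likewise overlapped 1 peak of repeat 2, which happened at 169 gene-end peaks in all.

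The 12 gene lists read against this background held 233 autosomal genes together, of which 97 (41.6%) had a gene-end peak, beside 30.1% of all genes. The best peak of a gene had a median of 18.3-fold and 12.2-fold over all 6217 genes. The lists were chosen with results of these data known, so their counts are descriptions.

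Of the naive pluripotency factors, 12 of 24 had a gene-end peak (50.0%, 29.1 to 70.9%), with a median best fold of 14.2 and 9.82. The count was 7 with a distance limit of 500 bp, beside 21.2% of all genes, and 19 with 2000 bp, beside 38.8%. With a fold of at least 10 in both repeats it was 6, beside 17.7% of all genes. Utf1, a chromatin factor of pluripotent cells, had the strongest, 708 bp from its 3′ end (81.16-fold and 66.92-fold). Next came Fbxo15, an F-box gene that marks pluripotent cells (38.13-fold and 34.93-fold, 29 bp from an end). Dppa3, which shields maternal methylation in the early embryo, had 18.63-fold and 16.48-fold, and Dppa2 14.98-fold and 14.06-fold. Esrrb, a nuclear receptor, had a weak peak 75 bp from its start with 10.15-fold and 6.67-fold. The core genes Nanog and Pou5f1 had a gene-end peak in repeat 1 alone, not shared with repeat 2, and the Krüppel-like factor Klf4 and the nuclear receptor Nr5a2 had none in either repeat.

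Of the LIF and Stat3 pathway, 12 of 19 genes had a gene-end peak (63.2%, 38.4 to 83.7%), with a median best fold of 13.9 and 9.73. The count was 8 with a distance limit of 500 bp and 6 with a fold of at least 10 in both repeats. The receptor subunit Lifr had a weak peak 31 bp from its start (7.33-fold and 7.85-fold), while the ligand gene Lif and the co-receptor gene Il6st had none in either repeat. Stat3, the transcription factor of the pathway, had the strongest by far, 119 bp from its start, with 111.6-fold and 51.41-fold. Among targets, the kinase gene Pim1 had 46.38-fold and 34.53-fold 441 bp from its start, and Icam1, an adhesion molecule, 62.64-fold and 36.11-fold at 941 bp. The feedback inhibitor Socs3 had 17.39-fold and 14.52-fold 135 bp from its 3′ end. The survival gene Mcl1 had its peak 895 bp from the 3′ end, with the higher fold in repeat 2 (16.57-fold and 20.88-fold).

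Pathways that the inhibitors in the medium act on made up 2 of the lists. Of the feedback genes of ERK signalling, which PD0325901 blocks upstream, 5 of 16 had a gene-end peak, all 5 nearest a start. With the peaks of either repeat alone the count was 8 of 16, while 32.5% of all genes had one in repeat 2 and 38.8% in repeat 1. Dusp6, a phosphatase of ERK, had 107.25-fold and 66.32-fold enrichment 23 bp from its start. Spry2, an inhibitor of receptor tyrosine kinase signalling, had 35.75-fold and 15.7-fold, and its relatives Spry1 and Spry4 had none. The early-response factor Fos had 23.67-fold and 15.3-fold. Of the Wnt and β-catenin pathway, which CHIR99021 turns on, 5 of 18 genes had a gene-end peak. Tcf7l1, the repressor among the Tcf factors, had 44.89-fold and 35.32-fold, the feedback gene Axin2 had 14.98-fold and 15.3-fold, and the destruction complex genes Apc and Axin1 had none.

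Of the Notch pathway, 10 of 17 genes had a gene-end peak, with a median best fold of 15.4 and 10.2. Rbpj at 177.3-fold and 128.32-fold was far above the rest. The receptor Notch1 had 26.57-fold and 17.66-fold, the ligand Dll1 31.12-fold and 22.37-fold, and the Notch inhibitor Numb 24.16-fold and 11.77-fold. The targets Hes1 and Hey1 had weak peaks within 20 bp of a gene end (10.15-fold and 6.67-fold at Hes1, 8.21-fold and 8.63-fold at Hey1). The receptors Notch2 and Notch3 had none in either repeat.

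Epithelial junction and surface genes had some of the strongest gene-end peaks of any list. They were found at 12 of 21 genes, with a median best fold of 49.2 and 21.9 beside 18.3 and 12.2 over all genes with a peak. In repeat 2 the 3 chromatin and DNA methylation regulators with a peak had a higher median (44.2 and 35.8). The protease inhibitor Spint1 had 104.85-fold and 86.43-fold, and its target protease St14 had 100.97-fold and 42.77-fold. The tight junction gene Cldn7 had 70.79-fold and 49.05-fold. Cdh1, which encodes E-cadherin, had 19.81-fold and 14.13-fold 179 bp from an end. Cldn4 had values far apart in the repeats, 97.81-fold and 8.24-fold with 465 and 65 tags. Epcam and Tjp1 had no gene-end peak in either repeat. In the kidney collecting duct list, the known adult site of Tfcp2l1, 8 of 16 genes had one, with a median best fold of 12.1 and 7.46. The water channel gene Aqp3 had 41.75-fold and 44.74-fold, the epithelial transcription factor Elf3 59.91-fold and 29.67-fold, and the sodium channel subunit Scnn1g 16.68-fold and 7.46-fold. Atp6v1g3, Atp6v0a4 and Scnn1b had none in either repeat, and Aqp2 had a gene-end peak in repeat 1 alone. With a fold of at least 10 in both repeats the count was 2 of 16, beside 17.7% of all genes.

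Of the genes of G1 and S phase, 14 of 24 had a gene-end peak, with a median best fold of 20.7 and 12.4. Inhibitors and cyclins were both among them. Cdkn1b, an inhibitor of cyclin-dependent kinases, had 57.97-fold and 40.03-fold 132 bp from its start, and Cdkn2a, of the same kind, 35.27-fold and 23.55-fold at its 3′ end. Cyclin E2 (Ccne2) had 49.28-fold and 20.41-fold, and the replication helicase subunit Mcm2 34.63-fold and 24.33-fold 11 bp from its start. Ccnd2 and Cdk4 had none. Of the glycolysis genes, 6 of 15 had one, led by pyruvate kinase (Pkm, 35.58-fold and 23.55-fold) and muscle phosphofructokinase (Pfkm, 26.67-fold and 21.19-fold).

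Chromatin regulators and liver and blood genes had the lowest counts of the 12 lists with both repeats required. Of the chromatin and DNA methylation regulators, 3 of 21 had a gene-end peak (14.3%, 3.05 to 36.3%). The low count did not hold with the peaks of repeat 2 alone, where it was 8 of 21 beside 32.5% of all genes, and it was 4 of 21 with those of repeat 1 alone. They were the Polycomb methyltransferase Ezh2 (61.84-fold and 37.28-fold), the remodeller Ep400 (44.16-fold and 35.77-fold) and the demethylase Kdm1a (18.84-fold and 10.2-fold). At Tet1 and Smarca4 a shared peak had only its repeat 2 summit within reach of an end, and Uhrf1, Chd4, Setdb1 and Ehmt2 had a gene-end peak in a single repeat. Tet3 and Dnmt1 had none in either. Of the lineage regulators of the early embryo, 8 of 23 had one, among them the endoderm factor Gata6 (37.68-fold and 18.84-fold) and the trophoblast factor Hand1 (32.25-fold and 19.23-fold). Of 20 liver and blood genes, 2 had one, both weak: Hba-a1 with 10.72-fold and 13.74-fold and Spi1 with 7.74-fold and 7.46-fold.

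**Figure D5:**
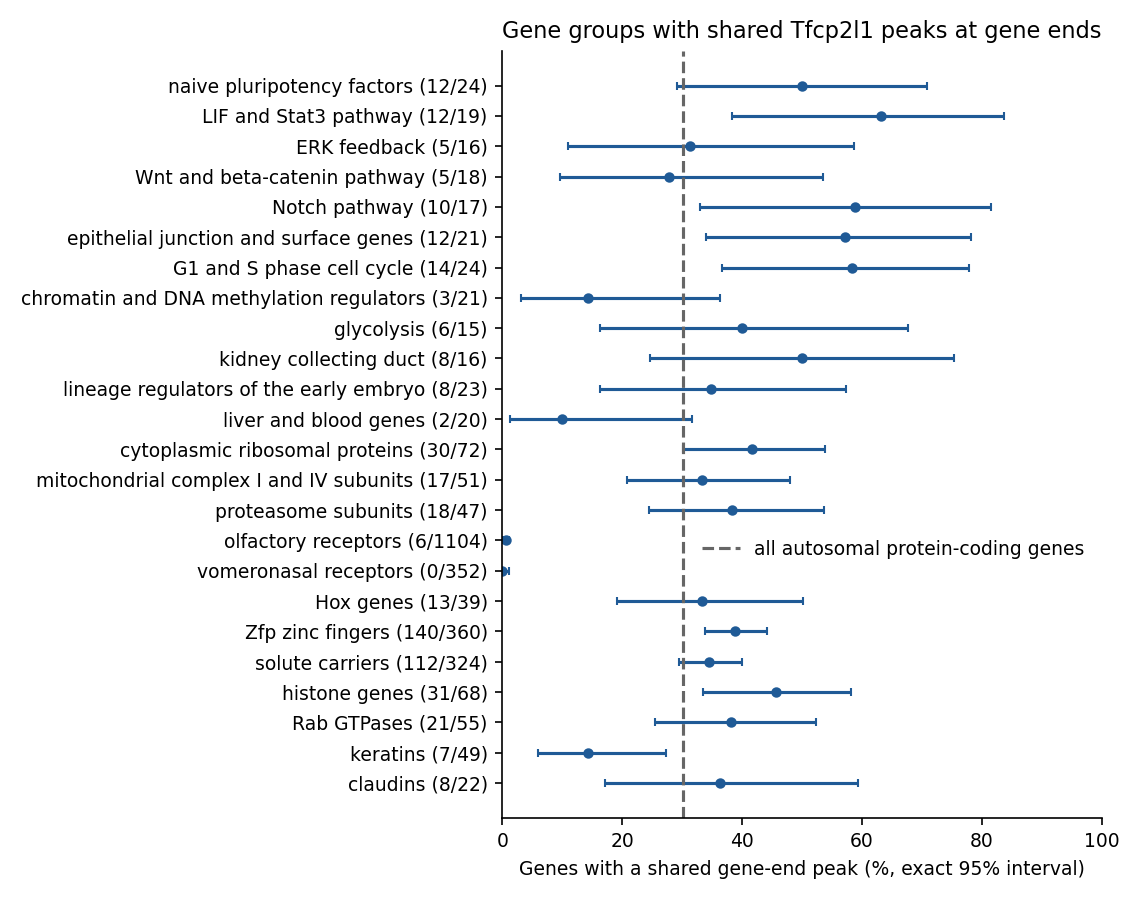
Percentage of autosomal genes of each group with a shared gene-end peak (points) with exact 95% intervals, in 12 lists and 12 gene families; the numbers in brackets are genes with a peak and genes in the group. The dashed line is the 30.1% of all autosomal protein-coding genes, and the groups run from 0 of 352 vomeronasal receptors to 12 of 19 genes of the LIF and Stat3 pathway.

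Gene families taken by name ran from 0 of 352 to 31 of 68 genes. Of 1104 olfactory receptor genes, which are read mainly in the nose, 6 had a gene-end peak (0.543%, 0.200 to 1.18%). None of 352 vomeronasal receptor genes had one, with an exact upper limit of 1.04%. Keratin genes had 7 of 49. With the peaks of repeat 1 alone these counts were 12 olfactory receptors, 2 vomeronasal receptors and 12 keratins, and with those of repeat 2 alone 1 vomeronasal receptor had one. Families used in every cell were nearer the background or above it, with 30 of 72 cytoplasmic ribosomal protein genes, 18 of 47 proteasome subunits and 17 of 51 subunits of mitochondrial complexes I and IV (26 of 51 with repeat 1 alone). The strongest in these families were Rpl18 (95.31-fold and 85.55-fold), Psmd13, which shares its peak with Sirt3 (117.95-fold and 91.04-fold), and Cox7c (101.94-fold and 64.36-fold).

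Of 360 zinc finger genes named Zfp, 140 had a gene-end peak, led by Zfp692 (115.47-fold and 75.74-fold). Of 324 solute carriers, 112 had one, with Slc27a1 and Slc16a9 in the lead. Of 55 Rab GTPases, regulators of vesicle traffic, 21 had one, with Rab5c at 120.36-fold and 77.7-fold. Of 39 Hox genes, 13 had one, led by Hoxd8 at 89.38-fold and 50.23-fold. Of 22 claudins, the pore and barrier proteins of tight junctions, 8 had one. Over all autosomal genes the share with a gene-end peak was 30.1%. The Zfp share was above it, at 38.9% (33.8 to 44.1%). The intervals of the other families named here took it in. They were 29.4 to 40.02% for solute carriers, 25.4 to 52.3% for Rab, 19.1 to 50.2% for Hox and 17.2 to 59.3% for claudins. Among the 18 claudins with orientation, 2 had a peak at the start and 5 at the 3′ end. Over all genes with orientation these shares were 25.5% and 7.46%. The LIF and Stat3 list likewise had 5 of 18 at the 3′ end, with 8 at the start.

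Histone genes had a gene-end peak at 31 of 68, at H1f2 with 115.47-fold and 45.52-fold and at H3c4 with 67.15-fold and 43.17-fold. They are short, with a median length of 492.5 bp, so that 1 peak can reach both ends. Of those with orientation, 23 of 62 had a peak at the start and 23 at the 3′ end, and 18 were in both counts. They also lie close together, and the 31 genes had 22 peaks between them. H2ac18 and H3c14 shared 1 of these (70.54-fold and 35.71-fold).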

How the data were processed

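Tfcp2l1 ChIP-seq was analysed from 2 peak lists, 1 per repeat, each called by the authors for a ChIP library against the input library of its repeat. Per the file headers, MACS 1.4.1 was run with a p-value threshold of 1e-05, tag size 35, fragment length 200 and at most 2 duplicate tags per position. CASAVA 1.8.2 is named in the submitters' processing notes; the aligner was not given in the sources used here. Those notes give mm9, but the positions fit GRCm38, which was used. Deposited tag counts are ChIP tags per peak, unscaled. The deposited score is 10 times the −log10 p-value of MACS and was not used for ranking. The deposited fold enrichment is a ratio of ChIP tags to local background, and the deposited FDR is a percent, per the file headers. Filtered input tags were 18446758 and 23825930.

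Each repeat 1 peak was matched to the repeat 2 peak of largest overlap. Gene ends came from a RefSeq gene table (GRCm38.p6) without strand; orientation came from the promoter table, which held 16457 of 20665 autosomal protein-coding genes and none of chromosome 18. Exons, introns and UTRs were not told apart. Intervals are exact (Clopper-Pearson) at 95%. No test was made, since both lists are repeats of 1 condition and regions are not replicates. Genes were named by rule: the 20 strongest gene-end peaks, the 10 genes with most peaks, up to 4 listed members with a peak and up to 2 without, and Tfcp2l1 (some genes the rule names are not reported here); others named (Esrrb, Nanog, Pou5f1, Tet1, Smarca4, Uhrf1, Chd4, Setdb1, Ehmt2, Lifr, Socs3, Hes1, Hey1, Cdh1, Cldn4) were chosen after their values were seen. The members, lists and families were chosen with earlier results of these data known, and the name patterns of families were narrowed after their matches were seen. The stricter half-site, CpG classes and summit offsets were also chosen after seeing the data. Peak matching and the assignment of gene ends were tested on simulated data, and the motif search was not. Alternatives were other distances, overlaps, folds, summits and motif forms, and each repeat alone. Python 3.11.15, numpy 2.4.6, pandas 2.3.3 and scipy 1.17.1 were used.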

Additional observations from a re-analysis of the deposited data

Results flagged for a closer look

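Chromosome X lies outside the rule that chose the gene-end peaks, and it carried such peaks all the same: 93 shared peaks had their summit within 1000 bp of a gene end there. They had fold enrichments of 5.31 to 153.15 in repeat 1, and their medians were 19.8-fold in repeat 1 and 10.6-fold in repeat 2. Of the 966 protein-coding genes of chromosome X, 101 had a gene-end peak (10.5%, exact 95% interval 8.60 to 12.6%), against 30.1% on the autosomes. Chromosome X had 575 shared peaks in all. Chromosome Y had 18 shared peaks, and 0 of its 256 genes had a gene-end peak.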

How the results depend on the processing

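No paired analysis was possible because the results come from no test and input libraries have no list of their own. With a distance limit of 500 bp, 9.58% of shared autosomal summits lay at gene ends, 21.2% of genes had a peak, 85.5% of oriented peaks were nearest a start and 59 genes of the 12 lists had a peak (97 at 1000 bp). At 2000 bp the first 3 values were 19.98%, 38.8% and 73.6%. A reciprocal overlap of 50% left 28.7% of genes with a peak. A fold of at least 10 in both repeats left 3386 peaks, 17.7% of genes, 54 list genes and a mean of the 2 repeat medians of 23.5-fold (14.5-fold for all gene-end peaks). With 1 repeat alone, the peaks numbered 6708 to 8087, the share of summits was 13.2 to 14.3%, that of genes 32.5 to 38.8%, the median fold 10.6 to 13.1, the start share 78.1 to 79.6% and the list genes 107 to 120. The pair stood in 91.1% of bound windows when each half-site had 2 free bases (75.4% of all windows), in 46.9% with the spacer 1 base shorter, in 46.9% with it 1 base longer and in 24.98% with half-sites CCAG or CCGG, a form chosen after seeing the data. With 1 repeat alone it stood in 55.6 to 56.4%. The difference in log2 repeat ratio between gene-end and other shared peaks was 0.16, and 0.12 to 0.18 under the alternatives run. Of 216 recomputed counts of 24 lists, 171 stayed within 1.5 times, and 17 of the other 45 came from the fold limit. Moved summits and one-to-one pairs, both added after seeing the data, took none of the list counts past 1.5 times. Depth limits weak peaks: the lowest tag count of a listed peak was 16 in repeat 1 and 18 in repeat 2.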
